A study of Homo sapiens with 2 samples.

Results

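The genes described here carry the symbols of cytosolic ribosomal proteins and were measured in human mesenchymal stem cells with and without transforming growth factor beta 1 (TGFB1). Members were selected on their level: they are the genes whose symbol has the form of a large (RPL, RPLP) or small (RPS, RPSA) subunit protein and that reached 5 CPM in either library, where CPM are unique molecular identifiers (UMIs) scaled to the library total in the usual way. That gave 82 genes of the 38606 in the deposited matrix, of which 10928 reached the same level, and 84 symbols had the form. Of the 82 genes, 50 carry a large and 32 a small subunit symbol. The member nearest the minimum was RPL39L, at 17.3 CPM untreated and 11.99 CPM with TGFB1, followed by RPL7L1 at 73.5 and 72.3 CPM. The 2 symbols below it were RPL3L, with 1 and 2 UMIs, and RPL10L, with 0 UMIs in both libraries.

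The cells were commercially supplied adipose-derived mesenchymal stem cells, starved overnight and then left untreated (labelled UNTR, treatment Control) or given TGFB1 (labelled TGFB) at 10 ng/mL for 24 h. Both groups shared the starvation, detachment with trypsin, freezing in Bambanker and shipment before sequencing. Each group was 1 library, so the treatment cannot be tested, p-values are left out, and every interval below covers counting error only and compares these libraries. Differences in handling between the libraries and TGFB1 itself cannot be told apart.

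A ribosome joins a small subunit, which reads the messenger RNA, to a large subunit, which forms peptide bonds, and most ribosomal proteins are present in 1 copy each. Their mRNAs are among the most abundant of growing cells and typically begin with a C followed by a run of pyrimidines, the 5′ terminal oligopyrimidine (TOP) motif, through which the growth-sensing kinase mTOR controls their translation. Transcript counts therefore do not measure how much ribosomal protein was made. TGFB1 signals through SMAD transcription factors and drives mesenchymal cells to make extracellular matrix.

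The untreated library held 8101 cells, 169011524 UMIs and a median of 19249 UMIs per cell, and the TGFB1 library 12555 cells, 208991941 UMIs and a median of 15134. Mesenchymal markers were present (7 of 7 at 5 CPM or more, of which NT5E and VIM were 1.5-fold or more lower with TGFB1). None of 7 leukocyte, 5 endothelial and 6 mural markers reached 5 CPM, and KRT5 and CD3E had 0 UMIs in both libraries. Of 5 epithelial and 6 melanocyte markers 1 each did, KRT18 at 35.1 and 80.2 CPM and MITF at 46.5 and 15.5 CPM. Some markers lay close to the 5 CPM limit. The mural markers CSPG4 (4.43 and 4.98 CPM), MCAM (1.78 and 4.88 CPM) and RGS5 (4.84 and 2.70 CPM) were just below it. The mesenchymal marker ENG (6.67 and 7.85 CPM) was just above it. The proliferation markers MKI67 (28.3 and 8.07 CPM) and TOP2A (49.5 and 12.5 CPM) were lower in the TGFB1 library, and 18 cell barcodes occurred in both libraries.

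Ribosomal protein genes took a smaller share of the transcriptome in the TGFB1 library, and the short ones took about the same share in both. The 82 genes gave 15.3% of untreated UMIs (exact binomial 95% interval 15.286 to 15.297%) and 13.8% of TGFB1 UMIs (13.829 to 13.839%). In single cells the median share was 15.7% untreated (quartiles 13.4 and 17.96%) and 13.7% with TGFB1 (11.8 and 15.7%), so the distributions overlapped widely. The median log2 ratio of CPM, TGFB1 over untreated, was -0.14 over the 82 genes, beside -0.10 over all 10928 genes. By gene, 26 ratios lay above 0 on the log2 scale and 56 below. Among other genes in 5 groups by coding length, from 32.9 to 47.1% lay above 0, with 34.7% in the shortest group. Nothing is therefore read from the count of members on either side of 0. The sign of the group median depended on scaling: it was 0.02 after trimmed-mean (TMM) scaling and 0.06 after scaling by the median of ratios, which moved the median of all genes by the same amount. Ratios, folds and signs below are of CPM scaled to the library total unless stated otherwise, and they shift together with the scaling. Only the distance of a gene from the median of the 82 genes stays the same under any scaling of a whole library.

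No member differed between libraries by 1.5-fold or more in either direction (0 of 82), where 8.45% of all genes were that much higher and 14.2% that much lower with TGFB1. The ratios ran from -0.53 (RPL39L) to 0.44 (RPS26) on the log2 scale. Counting intervals are narrow at such UMI counts and are not used here to count members. Relative to the median of the 82 genes, 8 members lay 0.32 or more above it on the log2 scale, beside 22.6% of all genes, and 4 lay as far below it, beside 19.6%. Apartness from this median was part of how the genes were chosen for description, so nothing is read from these counts. The median was -0.20 for the large and -0.12 for the small subunit.

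**Figure D1:**
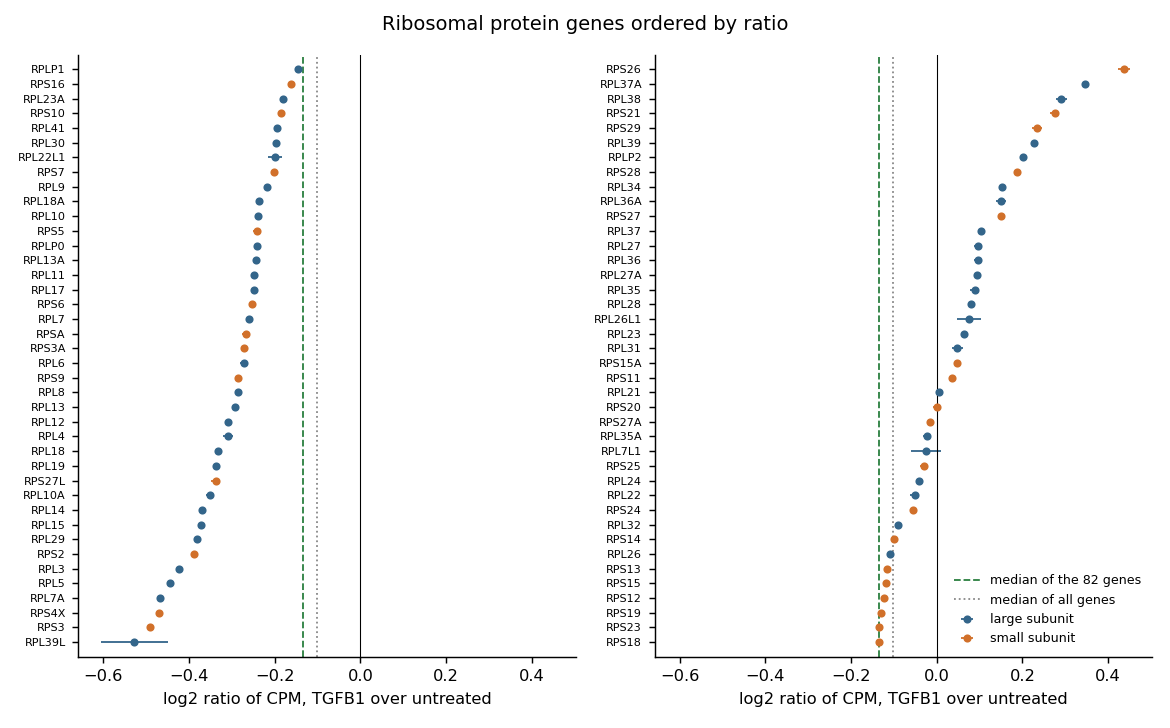
Log2 ratio of CPM, TGFB1 over untreated, for 80 of the 82 genes in rising order (bottom left to top right), with exact 95% counting intervals as bars and large and small subunit members in separate colours. The dashed line is the median of the 82 genes and the dotted line that of all genes at 5 CPM or more; RPL39L lies lowest and RPS26 highest.

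The highest relative ratios belonged to short proteins of both subunits. RPS26, which lines the channel where mRNA leaves the small subunit, had 432.6 CPM untreated and 585.8 CPM with TGFB1, a ratio of 1.35 (95% interval 1.342 to 1.367). RPL37A, a zinc-binding protein of the large subunit, had 1378 and 1752 CPM, a ratio of 1.27 (1.265 to 1.278). Both, like the other members named in this paragraph, were higher in the TGFB1 library under every scaling tried, also relative to the library total. RPL38, a large subunit protein known from mouse genetics to affect translation of some Hox mRNAs, had 485 and 593 CPM (ratio 1.22, 1.213 to 1.234). RPS21 had 737 and 892 CPM (1.21, 1.201 to 1.219). RPS29, another zinc-binding protein, had 710 and 835 CPM (1.18, 1.168 to 1.185). The remaining 3 were RPL39, which lies in the wall of the tunnel through which the new chain leaves, RPLP2 of the stalk, and RPS28, a neighbour of RPS26. Their CPM were 1672 and 1956 for RPL39, 1676 and 1927 for RPLP2, and 1709 and 1947 for RPS28.

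The lowest ratios, RPL39L apart, belonged to long proteins. RPS3, which lies where mRNA enters the small subunit, had 2095 CPM untreated and 1491 CPM with TGFB1, 1.40-fold lower (95% interval 1.398 to 1.411). RPS4X, an X-linked small subunit protein, had 3772 and 2723 CPM, 1.39-fold lower (1.380 to 1.390). RPL7A, a large subunit protein whose gene hosts 4 small nucleolar RNA genes, had 2999 and 2168 CPM, 1.38-fold lower (1.378 to 1.389). These genes and RPL39L made up the 4 members 0.32 or more below the median on the log2 scale. RPL5 (1902 and 1398 CPM) and RPL3 (2059 and 1535 CPM), a protein that reaches towards the peptide-bond centre, came next, at log2 ratios of -0.44 and -0.42.

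The proteins of the stalk, which recruits translation factors, did not move together. RPLP0, the base of the stalk, had 2131 and 1802 CPM, a log2 ratio of -0.24. RPLP1 had 5055 and 4569 CPM, a log2 ratio of -0.15, near the median of the 82 genes. RPLP2 had a ratio of 1.15 (95% interval 1.145 to 1.156), so the 3 stalk genes lay on both sides of that median. RPL5 and RPL11 join 5S rRNA in a particle that also binds the p53 regulator MDM2. RPL11 had 2572 and 2165 CPM, a log2 ratio of -0.25, against -0.44 for RPL5. RPSA, also known as a laminin receptor, had 1476 and 1226 CPM, a log2 ratio of -0.27. RPLP1, RPS18 and RPS12 had the highest mean CPM over both libraries, with RPS18 at 3955 and 3601 CPM and RPS12 at 3839 and 3524 CPM. Levels here are CPM and are not divided by length, so levels of different genes are not ranked further.

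Several members have an expressed namesake with an added L in its symbol, and the pairs differed. Pairs are set by name only, and a shared role in the ribosome is not implied. RPS27 had 1459 CPM untreated and 1618 CPM with TGFB1, a log2 ratio of 0.15, and RPS27L, a gene known to be induced by p53, had 864 and 684 CPM, a log2 ratio of -0.34. The coding sequences of both are 252 nucleotides long, but the annotated transcripts are 359 (RPS27) and 6434 nucleotides (RPS27L). RPL39 and RPL39L, which replaces RPL39 in male germ cells, both have coding sequences of 153 nucleotides, with transcripts of 401 and 756 nucleotides. RPL39 had a log2 ratio of 0.23 and RPL39L of -0.53. RPL22 had 924 and 891 CPM (log2 ratio -0.05) and RPL22L1, a copy whose RNA RPL22 is known to restrain, had 338 and 294 CPM (-0.20). RPL26 had 2069 and 1920 CPM (-0.11) and RPL26L1 had 111 and 117 CPM (0.08). RPL7 had 1851 and 1545 CPM (-0.26) and RPL7L1 a log2 ratio of -0.03, with a counting interval of the ratio from 0.960 to 1.006 that includes 1. The genes with the added L thus lay lower than their namesakes in the RPS27, RPL39 and RPL22 pairs and higher in the RPL26 and RPL7 pairs.

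Of the 82 genes, 77 have numbered pseudogenes in the annotation, 1145 in all. Reads shared with such near-identical copies could not be assessed, and single counts are uncertain to that extent. RPS26 has 30 such copies, RPL7A 37 and RPSA 74. The number of copies had a rank correlation of -0.10 with the log2 ratio across the 82 genes. The 82 genes lie on 21 chromosomes, and 28 of them hold 60 small nucleolar RNA genes inside their bounds.

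Starts of members from both ends of the range, and of paralogue pairs, are printed because the TOP motif is read from the first base of the mRNA. Each line gives 35 bases before and 15 bases from the annotated RefSeq start (GRCh38.p14), 5′ to 3′ on the gene's strand. Capitals mark the unbroken run of C and T that begins with a C at the start, as far as the window shows it.
RPS26: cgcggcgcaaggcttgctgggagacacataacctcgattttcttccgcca
RPL37A: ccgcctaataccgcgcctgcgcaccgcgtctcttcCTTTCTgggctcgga
RPL38: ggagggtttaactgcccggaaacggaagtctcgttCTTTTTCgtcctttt
RPS21: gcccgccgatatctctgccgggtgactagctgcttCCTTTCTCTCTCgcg
RPL39: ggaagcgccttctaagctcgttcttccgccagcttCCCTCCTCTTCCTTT
RPS3: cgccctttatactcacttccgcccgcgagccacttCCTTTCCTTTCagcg
RPS4X: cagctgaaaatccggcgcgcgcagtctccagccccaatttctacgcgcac
RPL7A: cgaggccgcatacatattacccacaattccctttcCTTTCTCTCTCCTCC
RPS27: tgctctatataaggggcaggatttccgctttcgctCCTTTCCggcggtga
RPS27L: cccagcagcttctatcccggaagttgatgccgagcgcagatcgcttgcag
RPL22: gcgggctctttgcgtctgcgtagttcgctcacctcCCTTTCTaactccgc
RPL22L1: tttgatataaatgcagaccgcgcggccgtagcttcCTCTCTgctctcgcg

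These windows lie at chr12:56041883-56041932 on the plus strand (RPS26), chr2:216498809-216498858 on the plus strand (RPL37A), chr17:74203643-74203692 on the plus strand (RPL38) and chr20:62387068-62387117 on the plus strand (RPS21). RPL39 is at chrX:119791616-119791665 on the minus strand, RPS3 at chr11:75399483-75399532 on the plus strand, RPS4X at chrX:72277234-72277283 on the minus strand and RPL7A at chr9:133348183-133348232 on the plus strand. RPS27 is at chr1:153990727-153990776 on the plus strand, RPS27L at chr15:63157463-63157512 on the minus strand, RPL22 at chr1:6199581-6199630 on the minus strand and RPL22L1 at chr3:170870181-170870230 on the minus strand. Each window spans the end of the promoter and the first bases of exon 1, within the 5′ untranslated region.

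A start in the RefSeq promoter table (GRCh38.p14) was matched by symbol for 66 of the 82 genes. The search asked for a C at the start followed by at least 4 bases that are C or T, on the sense strand only, since the motif belongs to the RNA. It was met by 47 of the 66 (71.2%) and by 4.98% of 27239 other genes. Allowing such a run within 10 bases of the start gave 87.9% of members and 38.3% of other genes. The printed starts show that the run did not separate high from low ratios: RPS3 and RPL7A, among the lowest, carry runs of 11 and 16 bases, and RPS26, the highest, has none at its annotated start. The median log2 ratio was -0.12 for the 47 with a run at the start and -0.22 for the 19 without, whose median coding lengths were 438 and 576 nucleotides.

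The ratios were ordered by length. Across the 82 genes the log2 ratio was lower for longer coding sequences (GENCODE release 29), with a Spearman rank correlation of -0.71. The genes share both libraries and are not independent, so this is a description of these libraries. It was -0.69 among 50 large and -0.72 among 32 small subunit members, and -0.80 among the 78 at 400 CPM or more. The 28 shortest members, of up to 399 nucleotides, had a median log2 ratio of 0.07, and 17 of them lay above 0. The 27 of middle length had a median of -0.12, with 8 above 0. The 27 longest, from 576 to 1281 nucleotides, had a median of -0.29, and 1 of them lay above 0. The short genes gave 3.91% of untreated and 3.97% of TGFB1 UMIs, and the long genes 5.86% and 4.76%. The lower group share in the TGFB1 library was thus carried by members of middle and long coding length.

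Other genes did not show this slope. Among 171 other genes at 400 CPM or more and of the same range of coding length, the rank correlation was 0.01. Among all 9794 other genes with a length it was 0.11. Of the other genes, 34.7% of those of 111 to 744 nucleotides and 32.9% of those of 744 to 1173 nucleotides had log2 ratios above 0. With the length of a RefSeq-linked principal transcript in place of the coding length, the correlation over 81 members was -0.35. Mean CPM had a rank correlation of -0.29 with the ratio and of 0.31 with coding length. RNA fragmentation and the insert sizes of the libraries could not be read from counts, and their part in the length pattern was not tested.

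**Figure D2:**
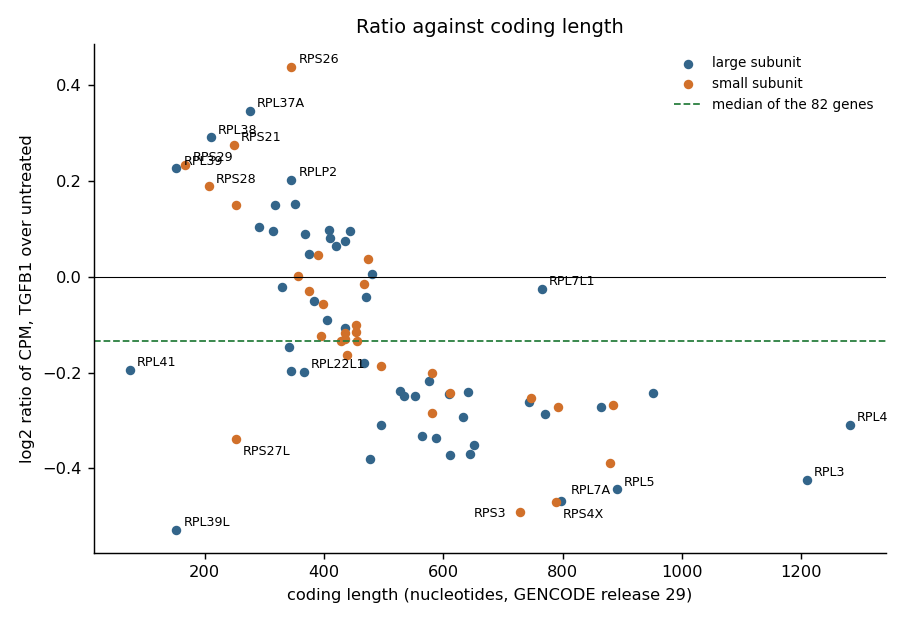
Log2 ratio of CPM, TGFB1 over untreated, against coding length in nucleotides for 80 of the 82 genes, coloured by subunit, with the median of the 82 genes as a dashed line. Ratios fall from short to long members (rank correlation -0.71 over all 82), and RPL39L and RPS27L lie lowest among the short members.

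Some short members lay off this order. RPL41, the shortest at 75 nucleotides, had 2888 CPM untreated and 2524 CPM with TGFB1, a log2 ratio of -0.19. RPS27L and RPL39L, described above, lay lower still. RPL28, with 3300 and 3490 CPM, had a log2 ratio of 0.08 at a coding length of 411 nucleotides.

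The ratio of short to long members differed between the libraries in every subset of cells compared. UMIs of the 28 short over UMIs of the 27 long genes came to 0.667 in the untreated and 0.835 in the TGFB1 library. Over the authors' clusters of at least 50 cells it ran from 0.650 to 0.722 in 5 untreated clusters and from 0.799 to 0.897 in 9 TGFB1 clusters, with no overlap. In 10 bins of UMIs per cell set alike for both libraries it ran from 0.652 to 0.740 untreated and from 0.806 to 0.910 with TGFB1. In these bins the rank correlation of the log2 ratio with coding length ran from -0.73 to -0.44. The ratio of short to long members also moved with depth inside each library. From the shallowest to the deepest of 10 bins of equal cell number it went from 0.719 to 0.651 untreated and from 0.928 to 0.807 with TGFB1.

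Only 3 clusters held at least 50 cells of each library, and the length order recurred in each. In cluster 1 (3687 untreated and 56 TGFB1 cells) the rank correlation of the log2 ratio with coding length was -0.84. It was -0.74 in cluster 7 (274 and 303 cells) and -0.72 in cluster 9 (108 and 183 cells). The members' log2 ratios in clusters 7 and 9 had a rank correlation of 0.93 with each other; these are different cells of the same 2 libraries. In these clusters the group median was 0.04, -0.05 and -0.03, and the shares of the libraries were close: 14.3 and 14.6% in cluster 1, 12.5 and 12.2% in cluster 7, and 10.9 and 10.6% in cluster 9. RPS26 had log2 ratios of 0.36, 0.40 and 0.56 in the 3 clusters, above 0 in each. Members 0.32 or more above the group median on the log2 scale numbered 4 in cluster 1 (14.3% of all genes), 8 in cluster 7 (16.5%) and 7 in cluster 9 (21.2%). As far below it lay 0 in cluster 1 (18.8%), 1 in cluster 7 (12.7%) and 2 in cluster 9 (29.2%).

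Across clusters the group share varied more than between libraries. Clusters are the authors', were built on expression that includes these genes, and are given by number, so their differences are descriptions. Among library and cluster groups of at least 50 cells, the share was highest in untreated cluster 2 (18.1%, 3094 cells) and TGFB1 cluster 4 (16.8%, 2421 cells). It was 14.3% in untreated cluster 1 and 13.4% in untreated cluster 6. In TGFB1 cells it was 12.9% in cluster 0, 13.4% in cluster 3, 14.8% in cluster 5, 12.7% in cluster 8 and 11.6% in cluster 10. Cluster 9 was lowest in both libraries. Most cells of either library sat in clusters that the other hardly held: clusters 1, 2 and 6 untreated, and clusters 0, 3, 4 and 5 with TGFB1.

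**Figure D3:**
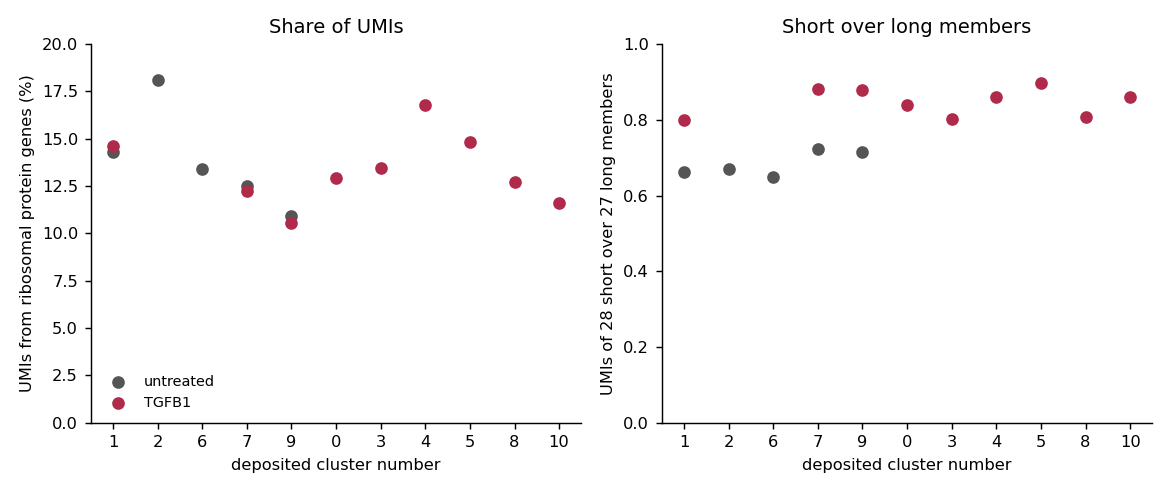
Share of UMIs from the 82 genes in percent (left) and UMIs of the 28 short over the 27 long genes (right) by deposited cluster number, 1 point per library and cluster of at least 50 cells. Shares overlap between libraries, from 10.6 to 18.1%, and the ratio on the right does not, at 0.650 to 0.722 untreated and 0.799 to 0.897 with TGFB1.

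Cluster 2 differed from cluster 1 in untreated cells much as cluster 4 differed from cluster 0 in TGFB1 cells. Members had a median log2 ratio of 0.37 in the first comparison, with 76 of 82 above 0, and of 0.39 in the second, with 79 above 0. Over all genes the medians were -0.27 and -0.26, so most genes lay below 0 in both comparisons. The share above 0 among other genes of like length is not given, so the counts of members above 0 are not weighed against length. Although the group stood higher, 0 members were 1.5-fold or more higher in the first comparison (0.705% of all genes) and 3 in the second (1.53%). The members' ratios in the 2 comparisons, which share no cell, had a rank correlation of 0.92 over the 82 genes, and the rank correlation of the members' ratios with coding length was 0.02 and -0.03. Among the other genes with a length it was -0.60 in the first comparison (9752 genes) and -0.61 in the second (9410 genes). Shorter genes outside the group thus had the higher ratios there. Whether length has a part in the higher ratios of the members was not tested.

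The same genes stayed behind in both. RPS20, which sits at the head of the small subunit, had log2 ratios of -0.17 and -0.09. RPL13A, known for a role in interferon-controlled translation, had -0.10 in both. RPL31, at the exit of the tunnel, had -0.07 and -0.08. These 3 were the members below 0 in the TGFB1 comparison, while RPL27A (-0.02 and 0.05) and RPL23 (-0.02 and 0.03) lay near 0. The difference in share in both comparisons was thus broad but left out these members. That did not hold for all of them in TGFB1 cluster 4 over cluster 3, where the median of the members was 0.31. There RPL31 had 0.31, RPL13A 0.18, RPL23 0.18, RPS20 0.10 and RPL27A 0.03.

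RPL39L and RPL22L1 followed the clusters rather than the group. RPL39L had 64.3 CPM in untreated cluster 6 (1307 UMIs) and 57.1 CPM in TGFB1 cluster 8 (474 UMIs), and from 8.37 to 16.1 CPM in the other 12 groups of cells. Clusters 6 and 8 were those with the most MKI67 and TOP2A: 225 and 379 CPM in untreated cluster 6, and 152 and 230 CPM in TGFB1 cluster 8. Cluster 6 made up 10.4% of untreated cells and cluster 8 made up 2.77% of TGFB1 cells. Without cells holding an MKI67 or TOP2A UMI, RPL39L lay at -0.03 log2 from the median of the 82 genes in place of -0.39. RPL39L was thus no longer apart once those cells were left out.

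RPL22L1 had 539 CPM in untreated cluster 6 and 565 CPM in TGFB1 cluster 8, and also 432 CPM in TGFB1 cluster 3. Its lowest level was 140 CPM, in untreated cluster 7. Its namesake RPL22 ranged only from 720 to 1102 CPM over the same 14 groups of cells. The ratio of highest to lowest level was 7.69 for RPL39L, 4.04 for RPL22L1, and 2.46 for RPS4X (4666 CPM in untreated cluster 2 and 1898 CPM in TGFB1 cluster 9). The steadiest were RPS20 at 1.38, RPL27A at 1.47 and RPL26L1 at 1.47. The Pearson correlation of a gene with the median of the other members over the 14 groups had a median of 0.88. It was 0.98 for RPS14, 0.41 for RPL22L1, 0.33 for RPS26, 0.07 for RPL7L1 and -0.04 for RPL39L. RPL7L1 too was highest in TGFB1 cluster 8 (103.5 CPM) and untreated cluster 6 (90.3 CPM). Its lowest level was 56.3 CPM, in TGFB1 cluster 10. The groups share 2 libraries and are not independent.

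**Figure D4:**
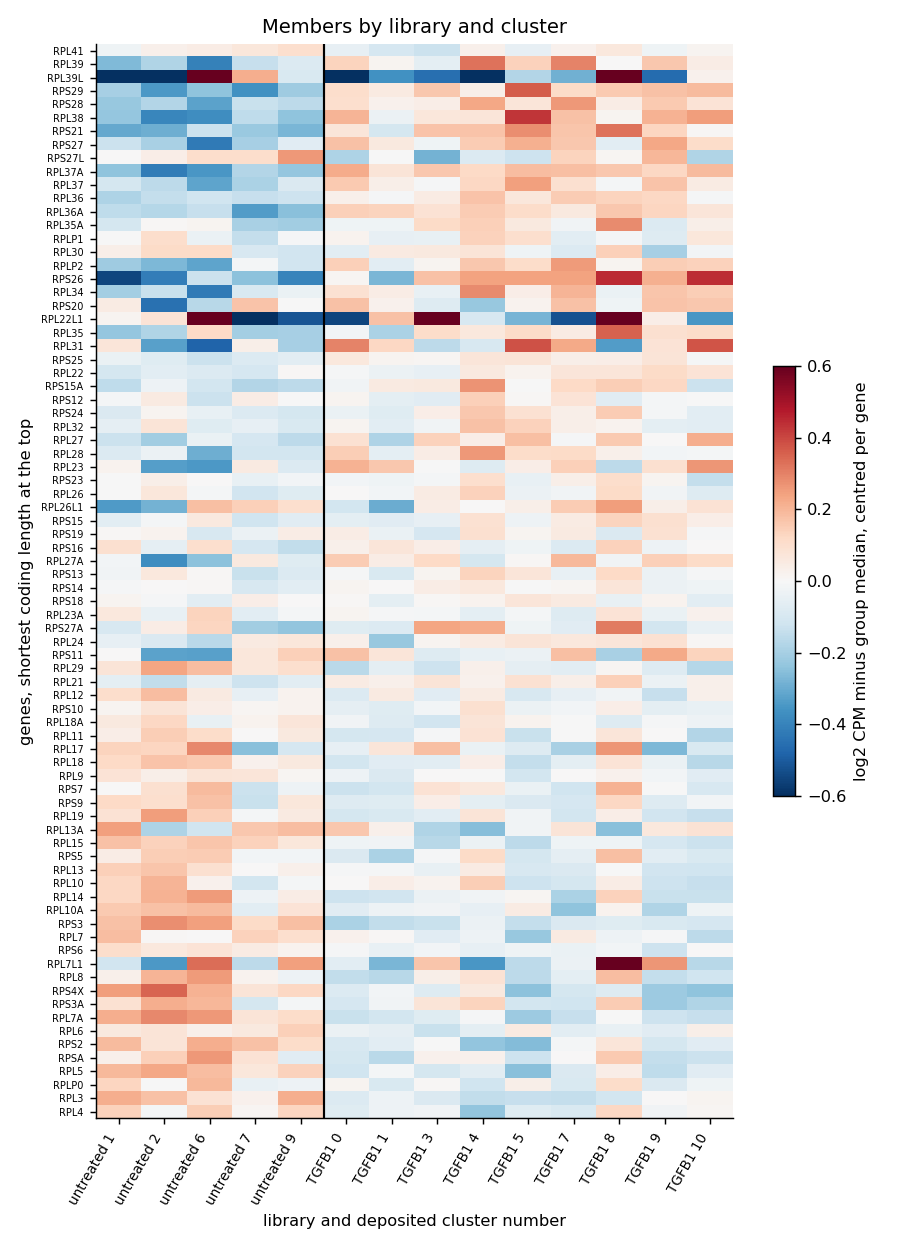
Each row is 1 of 80 of the 82 genes, shortest coding length at the top, and each column a library and cluster of at least 50 cells. Colour is log2 CPM minus the median of the 82 genes in that column, centred per gene and limited to 0.6 either way; short members are lower on the untreated side (left of the line) and higher on the TGFB1 side, long members the reverse, and RPL39L and RPL22L1 stand out in untreated 6 and TGFB1 8.

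The share also moved with the number of UMIs per cell, and differently in the 2 libraries. In untreated cells, sorted into 10 bins of equal cell number, it was 15.4% in the shallowest bin, 16.9% in the next and 14.1% in the deepest. In TGFB1 cells it was 13.6% in the shallowest bin, 12.5% in the third, 14.98% in the fifth and 13.2% in the deepest. The untreated share was thus highest in the second bin, and the TGFB1 share lowest in the third and highest in the fifth. Cluster 5 made up 69.1% of the shallowest TGFB1 bin. In untreated cells, cluster 2 had a share of 18.1% at a median of 16327 UMIs per cell, and cluster 1 had 14.3% at 21470. Depth and cluster are thus mixed in these bins and were not separated. The rank correlation of share with UMIs per cell was -0.22 over 8101 untreated and 0.06 over 12555 TGFB1 cells, where the UMI total enters both measures. In bins set alike for both libraries the TGFB1 share was the lower in 10 of 10, with differences (TGFB1 minus untreated) from -2.74 to -0.738 percentage points.

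**Figure D5:**
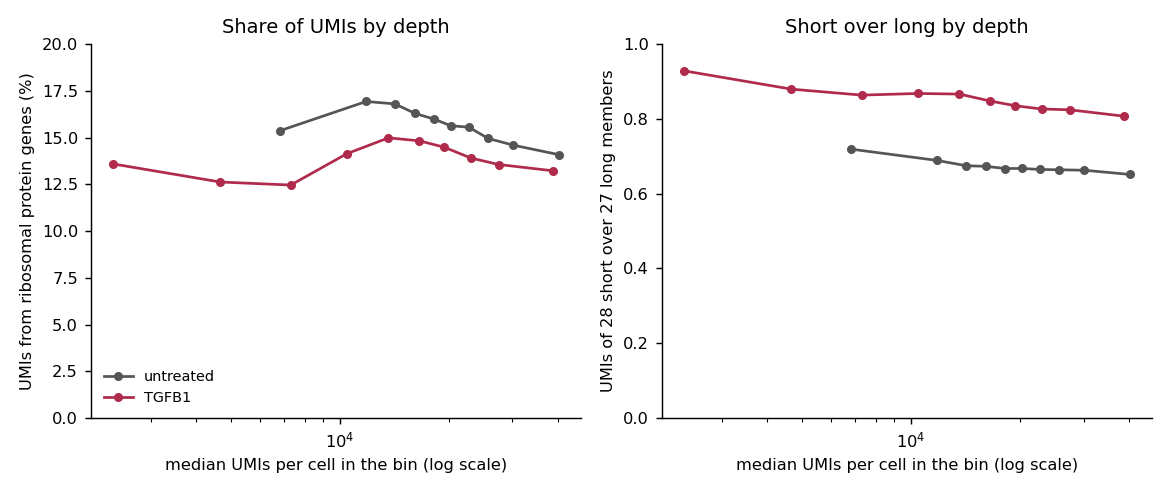
Share of UMIs from the 82 genes in percent (left) and UMIs of the 28 short over the 27 long genes (right) against the median UMIs per cell (log scale) of 10 bins of equal cell number in each library. The left curves differ in shape, and on the right the TGFB1 curve lies above the untreated curve throughout.

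Single members leaned on depth in different ways. Between the shallowest and the deepest bin, RPS27 went from 1688 to 1257 CPM untreated and from 1804 to 1477 CPM with TGFB1. RPL37 went from 1436 to 1187 CPM and from 1693 to 1316 CPM, and RPL29 and RPL32 also had less in the deepest bin of both libraries. Others had more in deep cells. In untreated cells RPL13A went from 1791 to 2559 CPM and RPS20 from 778 to 1099 CPM. In TGFB1 cells RPL13A had 2132 CPM in both bins and RPS20 had 1076 and 1072 CPM. RPL39L went from 12.6 to 21.1 CPM untreated and from 11.2 to 13.03 CPM with TGFB1. RPS20 and RPL13A, which lagged in clusters 2 and 4, were thus among the members with relatively more in deep untreated cells. Cluster and depth were not separated here either. RPL39L was 1 of 2 members 1.5-fold or more higher in the deepest untreated bin (6.64% of all genes), and there were 0 in the deepest TGFB1 bin (2.65%).

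After each cell was thinned to 7500 UMIs, which kept 7646 untreated and 9330 TGFB1 cells and left out 455 and 3225, 78 members were detected in at least 90% of cells of each library. The exceptions were genes with the added L in their symbol. RPL39L was found in 10.8% of untreated and 8.44% of TGFB1 cells (23.7 and 15.6% before thinning), RPL7L1 in 41.3 and 40.3%, RPL26L1 in 56.2 and 57.6%, and RPL22L1 in 79.7 and 77.1%. No cell type that should lack these genes was present to set a background for free RNA.

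Genes around the ribosome differed by group, with directions relative to the library total and subject to the same scaling limit. Over all genes at 5 CPM or more, 8.45% were 1.5-fold or more higher and 14.2% that much lower, which is the background for each list count that follows. Of 8 genes listed for translation elongation, with TPT1 and EEF1E1 beside elongation factors, 0 were 1.5-fold or more higher or lower. The median log2 ratio of these 8 was -0.34. EEF1A1, which brings aminoacyl-tRNA to the ribosome, had 7957 CPM untreated and 5359 CPM with TGFB1. TPT1 had 4458 and 3382 CPM, and EEF2, which moves the ribosome along, 717 and 563 CPM. Of 28 measured initiation factors 0 were that much higher and 1 lower, EIF3F (314 and 198 CPM), with a median of -0.20. EIF4A2 (171 and 114 CPM) and EIF4B (194 and 138 CPM), an RNA helicase and its partner, followed. Of 11 other genes with TOP-type starts, 0 passed upward and 4 downward, and the median was -0.50. The 4 were SNHG8 (269 and 136 CPM), HNRNPA1 (374 and 226 CPM), SNHG1 (10.7 and 7.02 CPM) and EPB41L4A-AS1 (97.0 and 64.3 CPM). The median of this group was the lowest of the translation lists.

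Ribosome assembly genes did not follow that direction. Of 40, 0 were 1.5-fold or more higher and 1 lower, beside 8.45 and 14.2% of all genes. Their median log2 ratio was 0.00, beside -0.10 over all genes. The lower gene was NOB1, the nuclease that finishes 18S rRNA (32.6 and 18.1 CPM). DDX21 (66.9 and 94.5 CPM) and GTPBP4 (47.0 and 64.6 CPM) were the next by size. Of 13 measured genes of RNA polymerase I and its factors, which transcribe rRNA, 1 was higher, POLR1G (5.83 and 13.9 CPM), and 2 lower, POLR1D (145 and 90.1 CPM) and POLR1E (13.7 and 8.70 CPM). Of 19 mTOR and TOP regulators 0 passed in either direction, with a median of 0.01. EIF4EBP1, a repressor of initiation that mTOR inactivates, had 191 and 287 CPM, CNBP 159 and 115 CPM, and SSB, the La protein, 179 and 133 CPM. Of 11 measured ribosomal protein chaperones 0 passed, with a median of -0.11, among them PDCD2 (55.4 and 40.7 CPM), HEATR3 (9.45 and 12.8 CPM) and PDCD2L (5.02 and 3.92 CPM). Of 78 genes with a mitochondrial ribosomal protein symbol, among them the pseudogene MRPL45P2, 0 passed upward and 4 downward, and the median was -0.23; MRPS24 (185 and 100 CPM), MRPL10 (16.5 and 9.83 CPM) and MRPS26 (51.7 and 31.3 CPM) differed most.

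Cytosolic ribosomal proteins whose symbols lack the form were not counted as members. Among them FAU had 1036 and 1043 CPM, RPL36AL 393 and 392 CPM and RACK1, a scaffold on the small subunit, 1491 and 1142 CPM. RACK1 thus lay among the low ratios of the members, and FAU and RPL36AL near a ratio of 1.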

How the data were processed

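Single-cell RNA libraries of untreated and TGFB1-treated cells, 1 each, were used. Cell Ranger 9.0.1, Seurat and GRCh38 appear in the submitters' processing notes without roles, and the annotation and 10x chemistry are not given in the sources used here. Raw UMI counts per gene and cell were deposited by the authors, and their deposited cell table gives counts of UMIs and genes, the percent of mitochondrial UMIs, the library and the cluster. Sums per cell matched that table exactly for all 20656 cells. Cells had at least 505 (untreated) and 502 (TGFB1) genes and at most 5.00% mitochondrial UMIs, as a filter before deposit would leave. Doublets were not called, and any were kept.

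UMIs were summed per library, cluster or depth bin and divided by the total as CPM. Ratios carry exact conditional binomial and shares exact binomial 95% intervals, which cover counting error only. A count of 0 allows up to 3 UMIs, 0.0178 CPM untreated and 0.0144 CPM with TGFB1. Coding length is that of GENCODE release 29. edgeR 4.0.16 (R 4.3.3) gave TMM factors (1.06 and 0.948); other steps used scipy 1.17.1, numpy 2.4.6, pandas 2.3.3 and matplotlib 3.10.9 under Python 3.11.15. The calculation was tested on simulated data.

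The genes, the lists and the alternatives were chosen with earlier results of these data known, and the list of mitochondrial ribosomal proteins, the comparison with coding length and TMM over genes at 5 CPM were added after values were seen. Named genes were the 6 highest and 6 lowest ratios, members 0.32 or more from the group median on the log2 scale, the 3 highest and 3 lowest levels, paralogues, stalk and 5S proteins, those at the 5 CPM limit, those at the extremes over clusters (3 each) and depth bins (4 each), and up to 3 of each list by size of the log2 ratio. Genes off the length order or behind in clusters 2 and 4 were named after their values were seen. A few genes covered by this rule are left out of the text and of the plots of single genes.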

Additional observations from a re-analysis of the deposited data

How the results depend on the processing

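The median log2 ratio of the 82 genes, -0.14, changed sign with TMM (0.0196) and median-of-ratios scaling (0.0562). It was -0.0341 with TMM over genes at 5 CPM, -0.16 with the total taken without members, -0.17 with equal weight for each cell, -0.15 (-0.145) after thinning, -0.15 (-0.1499) without cells holding an MKI67 or TOP2A UMI and -0.15 (-0.1492) with the same distribution over depth bins. The cause was not tested. The untreated and TGFB1 shares were 15.7 and 14.2% without mitochondrial genes, 15.6 and 13.8% with equal cell weight, 15.7 and 14.1% after thinning, 15.6 and 14.0% without cells holding MKI67 or TOP2A, 15.5 and 14.0% without clusters 7, 9 and 10, and 15.4 and 13.9% at the same depth distribution; without cluster 5 the TGFB1 share was 13.8%. The untreated share was the higher in each of these. The 12 members apart from the median became 0 at 1.5-fold; otherwise 10 to 12 were apart. From the shallowest to the deepest bin the share differed by -1.29 percentage points untreated (-2.11 with 5 bins) and by -0.368 with TGFB1, where it was 0.419 with 5 bins and 1.10 without cluster 5. The rank correlation with coding length kept its sign in each alternative run. With 1 library per group, no library could be left out.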
